A study of Rattus norvegicus with 6 samples.

Results

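The nuclear respiratory chain and ATP synthase genes are the genes of the nucleus that encode the protein subunits of mitochondrial complexes I to V. They were chosen by symbol alone: Nduf followed by a, b, c, s or v and a digit, Sdha to Sdhd, symbols that begin with Uqcr, Cox4 to Cox8, Cyc1, and symbols that begin with Atp5. Of the 22601 genes in the deposited count table, 85 met this rule: 37 of complex I, 4 of complex II, 9 of complex III, 18 of complex IV and 17 of complex V. The rule also takes a few relatives that are not fixed subunits, namely isoforms of other tissues, the paralogues Ndufa10l1, Ndufa4l2 and Cox7a2l2, the supercomplex factor Cox7a2l, and Atp5s and Atp5sl, which are named Dmac2l and Dmac2 in RefSeq. Of the 85, 82 passed the filter on low counts and 70 averaged at least 50 CPM (counts scaled to library size). The 3 that did not pass are isoforms of cytochrome c oxidase known from other tissues: Cox7a1 had 6, 1 and 4 reads in aged and 2, 1 and 3 in adult rats in the row of that symbol, Cox7b2 had 0, 0 and 1 and 2, 4 and 0, and Cox8c had 0 reads in all 6 libraries. In RefSeq 38 members have a named pseudogene, among them Cox4i1, Cox6a1, Cox7a2, Cox7b, Atp5b, Atp5e, Atp5g1, Atp5g2, Atp5l, Cyc1, Ndufa2, Ndufa3, Ndufa4, Sdhc, Sdhd and Uqcr10, and 31 overlap another gene, among them Cox8a (with Macrod1), Ndufb9 (with Tatdn1) and Cox7a2 (with Tmem30a). Counts of such genes are uncertain, since the way reads were assigned is not given.

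The libraries were made from ventral hippocampus, of 3 aged rats, 22 months old, and of 3 adult rats, 4 months old, all of them male animals of the outbred Sprague Dawley strain. Within each age, the 3 had been drawn at random from 10 rats that had swum a Morris water maze to assess spatial memory, and every library came from a separate animal. Neither age carried a genetic change or a treatment that the labels name. Library totals lay between 12476758 and 15689921 counts. The 8 neuron markers looked up, such as Snap25 and Camk2a, summed to between 7034 and 9539 CPM per library, and the hippocampal field genes Prox1, Wfs1 and Nrgn were present in all 6. Single markers were less even. Wfs1 had 132, 162 and 76.7 CPM in aged and 35.0, 224 and 233 CPM in adult rats. Camk2a had 368, 149 and 305 CPM in aged and 102, 395 and 203 CPM in adult rats. Some libraries held RNA of other tissues: choroid plexus markers summed to 2151 CPM in adult replicate 1 and to between 9.05 and 75.8 CPM elsewhere. Liver markers other than Ttr, which choroid plexus also makes, and Tf, which oligodendrocytes also make, were 13 genes that summed to 42.6, 312 and 243 CPM in aged rats and to 45.0, 608 and 635 CPM in adult rats. The 7 oligodendrocyte markers summed to 6691, 7047 and 8887 CPM in aged rats, against 16990, 11570 and 11320 CPM in adult rats. The 9 markers of endothelium and pericytes summed to 361, 414 and 292 CPM in aged and 417, 552 and 421 CPM in adult rats, and the 4 of blood to 214, 129 and 112 CPM in aged and 267, 162 and 139 CPM in adult rats. All markers of these 3 lists had negative log2 fold changes (aged over adult). The part of such differences between libraries in the results below was not tested. In whole tissue, fewer cells of a type and less RNA per cell cannot be told apart.

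The respiratory chain passes electrons from NADH (complex I, NADH dehydrogenase) and succinate (complex II, succinate dehydrogenase) through ubiquinone to complex III (cytochrome bc1), then through cytochrome c to complex IV (cytochrome c oxidase) and oxygen. Complexes I, III and IV pump protons across the inner mitochondrial membrane, and ATP synthase (complex V) uses the resulting gradient to make ATP, on which synaptic transmission depends heavily. All subunits of complex II and most of the other complexes are encoded in the nucleus, while a small set of catalytic subunits comes from mitochondrial DNA and lies outside the symbols used here. In each complex, a few core subunits carry the flavins, iron-sulfur clusters, hemes or catalytic sites, and small accessory subunits surround them.

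No respiratory chain gene was called between the ages, and most of them stood slightly lower in aged rats. With edgeR's quasi-likelihood test and Benjamini-Hochberg adjustment over all 14588 genes tested, 0 of 82 members passed an adjusted p under 0.05, and 0.0% of all genes did. The smallest adjusted p of a member was 1.0. An unadjusted p under 0.05 was reached by 4 members, against a background of 3.45% (503 of 14588 genes). Atp5f1 was the 1 member higher in aged rats (background 1.18%), and Ndufa10l1, Cox8b and Uqcr10 were the 3 lower (background 2.27%). DESeq2 called 31 genes over the whole table (0.213%), 1 of them a member, Atp5f1 (adjusted p = 0.00838), while limma-voom and limma on log2(FPKM + 1) called 0 members. The fitted log2 fold change (aged over adult) was negative in 64 members and positive in 18, where 50.5% of all genes tested were negative. Its median was -0.095 over the members and -0.0022 over all genes. This direction rested on single libraries: without aged replicate 3 the members divided into 38 lower and 44 higher with a median of 0.013, and without adult replicate 1 into 33 lower and 49 higher with a median of 0.026. Without aged replicate 2 it was 73 lower and 9 higher with a median of -0.24, and without adult replicate 2 it was 70 lower and 12 higher with a median of -0.23. Without aged replicate 1 the median was -0.040.

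**Figure D1:**
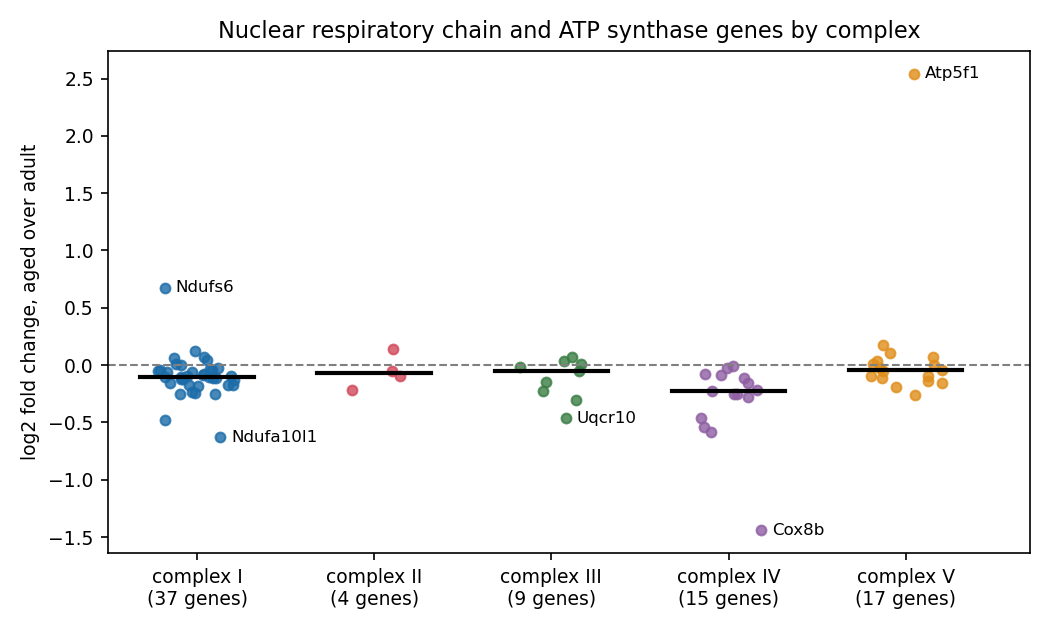
Fitted log2 fold change (aged over adult, vertical axis) of each of the 82 tested members, by complex; each point is a gene, each black bar the median of its complex, and the dashed line the median of all genes tested. All 15 tested genes of complex IV lie below 0 with a median of -0.23, the other complexes have medians between -0.10 and -0.043, and Atp5f1 stands apart at 2.54.

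The groups overlapped for nearly all members. In 3 members (Ndufa10l1, Cox6a2 and Cox8b) every aged value lay below every adult value, and 4.43% of all genes tested showed that pattern. In 1 member (Atp5f1) every aged value lay above every adult value, as in 3.13% of all genes. Together these are 4 of 82 members, where 7.56% of all genes did not overlap, so the members' share was not above the background.

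The members varied together from library to library, more than they varied with age. Expressed as the median over members of log2(CPM + 0.5) minus the mean of the 6 libraries, the level was -0.11, 0.21 and -0.26 in aged replicates 1 to 3 and 0.27, -0.18 and 0.096 in adult replicates 1 to 3. Aged replicate 2 therefore stood with adult replicate 1 at the high end, and adult replicate 2 stood with aged replicates 1 and 3 at the low end. Summed over all members, the transcripts made up 16310, 19330 and 14220 CPM in aged rats and 19510, 15110 and 17620 CPM in adult rats, or 16620 ± 2567 and 17410 ± 2208 CPM (SD, n = 3 each). The difference between the ages was smaller than the spread within either.

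In all 5 complexes aged replicate 2 and adult replicate 1 were the highest libraries and aged replicate 3 was the lowest. Complex I stood at -0.12, 0.22 and -0.24 in aged rats and at 0.27, -0.19 and 0.11 in adult rats on this log2 scale. Complex V stood at -0.11, 0.25 and -0.27 in aged rats and at 0.24, -0.23 and 0.086 in adult rats. Complex II had the smallest range, from -0.23 in aged replicate 3 to 0.13 in adult replicate 1. The 74 tested genes of cytosolic ribosomal proteins, which build the ribosome and have no place in respiration, showed a like order, at -0.26, 0.30 and -0.31 in aged rats and 0.25, -0.12 and 0.12 in adult rats. The 70 tested mitochondrial ribosomal protein genes stood at -0.077, 0.21 and -0.20 in aged and 0.13, -0.15 and 0.086 in adult rats. The 16 tested genes of pyruvate dehydrogenase and the citric acid cycle, which make the NADH and succinate that the chain consumes, did not follow this order, at 0.16, 0.040 and -0.092 in aged rats and 0.028, -0.049 and -0.095 in adult rats. These are longer genes, with a median of 2157 bases, against 712 for the members and 603 for the cytosolic ribosomal proteins. All genes of 1500 to 2499 bases ranged only from -0.067 to 0.055. The part of gene length in this contrast was not tested.

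**Figure D2:**
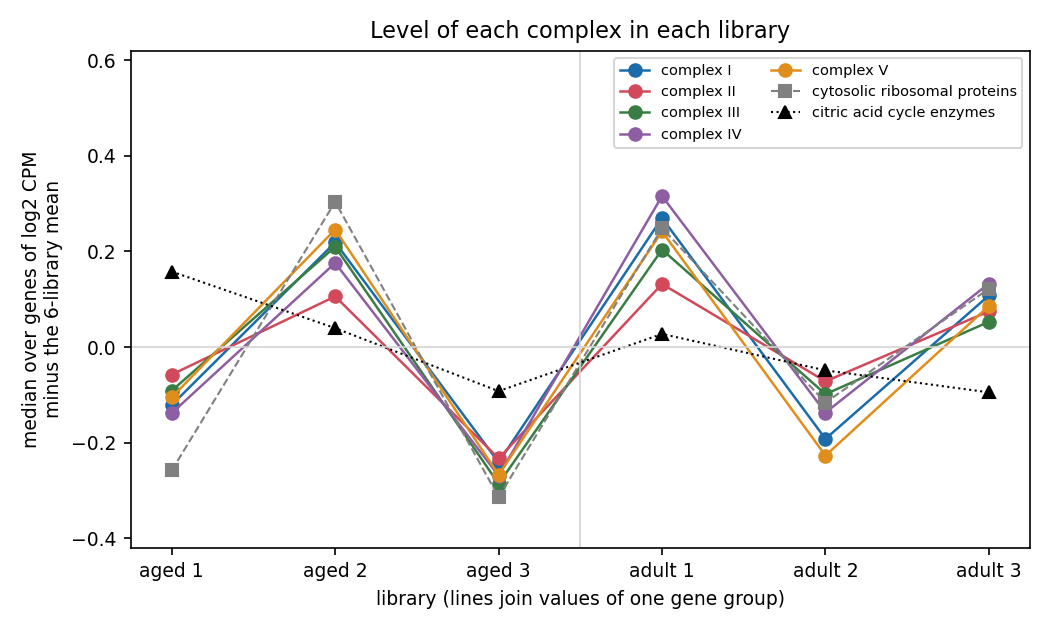
Level of each complex in each library: the median over its genes of log2(CPM + 0.5) minus the mean of the 6 libraries, with the aged libraries left of the adult ones. Complexes I to V and the cytosolic ribosomal protein genes are all high in aged replicate 2 and adult replicate 1 and low in aged replicate 3, while the citric acid cycle enzymes range only from -0.095 to 0.16.

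Complex I, the entry point for electrons from NADH, had 30 of 37 genes lower and 7 higher in aged rats, a median log2 fold change of -0.10, and 0 called. Its core subunits were near 0 and its accessory subunits below: among the 7 core genes 4 were lower and 3 higher (median -0.029), and among the 28 accessory genes 24 were lower and 4 higher (median -0.11). Summed over the complex, the level was 5186 ± 848 CPM in aged and 5460 ± 791 CPM in adult rats (SD, n = 3 each).

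Ndufs1, the largest iron-sulfur subunit of the arm that oxidizes NADH, had 194, 149 and 148 CPM in aged rats and 145, 162 and 143 CPM in adult rats. Its log2 fold change of 0.12 ± 0.14 (SE) was smaller than its error, and aged replicate 1 alone stood above the adult range. Ndufv1, which binds NADH and the flavin, averaged 274 ± 37.9 CPM in aged and 262 ± 16.8 CPM in adult rats (log2 fold change 0.064). Both log2 fold changes were smaller than their standard errors.

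Among the accessory subunits, Ndufa9 had a log2 fold change of 0.072, with 139, 145 and 128 CPM in aged and 134, 121 and 137 CPM in adult rats. The small subunits Ndufa2 and Ndufa3 had 79.0, 107 and 67.4 CPM and 88.5, 113 and 76.0 CPM in aged rats, against 123, 76.7 and 98.4 CPM and 142, 80.8 and 106 CPM in adult rats. Both had a log2 fold change of -0.24, and in both aged replicate 2 lay inside the adult range. Per length, Ndufb9 and Ndufa4 were the most abundant genes of the complex by symbol: Ndufb9 averaged 502 ± 119 FPKM in aged and 540 ± 112 FPKM in adult rats, and Ndufa4 averaged 379 ± 78.1 FPKM in aged and 417 ± 89.2 FPKM in adult rats. The protein of Ndufa4 was first taken for a part of complex I and is now placed in complex IV. With Ndufa4 and Ndufa4l2 counted there, the medians were -0.092 for complex I and -0.23 for complex IV.

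Ndufa10l1 was the complex I gene with the smallest p. It had 12.7, 10.4 and 17.0 CPM in aged rats and 23.6, 20.7 and 17.8 CPM in adult rats, so the groups did not overlap, although aged replicate 3 and adult replicate 3 were close. The log2 fold change was -0.63 ± 0.21 (unadjusted p = 0.0189, adjusted p = 1.0 by edgeR). It is a copy of Ndufa10, an accessory subunit of the membrane arm, and reads may have been divided between the pair, so its count is uncertain. Ndufa10l1 made up 21.3%, 19.6% and 30.5% of the FPKM of the pair in aged rats and 36.1%, 33.0% and 29.0% in adult rats, so on this ratio aged replicate 3 lay inside the adult range. Ndufs6, a small zinc-binding subunit, had only 0.932, 1.93 and 1.00 CPM in aged and 1.09, 0.632 and 0.667 CPM in adult rats (log2 fold change 0.68 ± 0.47, unadjusted p = 0.192). In RefSeq it overlaps Mrpl36, and the use of strand in counting is not given in the sources used here.

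Complex II, which oxidizes succinate within the citric acid cycle and has no subunit from mitochondrial DNA, had 3 of 4 genes lower in aged rats, 1 higher and 0 called. Sdha, the flavin subunit that oxidizes succinate, had 316, 258 and 261 CPM in aged rats and 223, 294 and 241 CPM in adult rats, a log2 fold change of 0.14 ± 0.15. Sdhb, the iron-sulfur subunit, averaged 160 ± 27.6 CPM in aged and 165 ± 17.5 CPM in adult rats (log2 fold change -0.048). Sdhc, a membrane anchor, had 151, 174 and 132 CPM in aged rats and 197, 160 and 175 CPM in adult rats, a log2 fold change of -0.21 ± 0.14 (unadjusted p = 0.173). Sdhd, the other anchor, averaged 148 ± 17.5 CPM in aged and 158 ± 14.7 CPM in adult rats (log2 fold change -0.093). All 4 overlapped between the ages, and their sum was 738 ± 69.1 CPM in aged and 752 ± 11.3 CPM in adult rats.

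Complex III, which hands electrons from ubiquinol to cytochrome c, had 6 of 9 genes lower and 3 higher in aged rats, a median log2 fold change of -0.049, and 0 called. Its redox subunits differed by less than the spread in aged rats. Cyc1, the heme subunit cytochrome c1, had 240, 247 and 198 CPM in aged and 224, 216 and 225 CPM in adult rats (log2 fold change 0.040). Uqcrfs1, the Rieske iron-sulfur protein, had 150, 199 and 151 CPM in aged and 174, 159 and 173 CPM in adult rats (log2 fold change -0.017). The large core proteins Uqcrc1 and Uqcrc2 had log2 fold changes of 0.075 and 0.0078, with means of 258 ± 35.1 and 270 ± 15.5 CPM in aged and 245 ± 7.32 and 269 ± 35.4 CPM in adult rats.

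The small subunits of complex III carried its lowest values. Uqcr10, a small membrane subunit, had 61.2, 68.8 and 49.9 CPM in aged rats and 104, 65.5 and 77.8 CPM in adult rats, 60.0 ± 9.51 against 82.6 ± 19.9 CPM (SD, n = 3 each). Its log2 fold change was -0.46 ± 0.19 (unadjusted p = 0.0449, adjusted p = 1.0 by edgeR), and aged replicate 2 lay above adult replicate 2. Without adult replicate 1, its highest library, the log2 fold change was -0.25, and with the trend on gene length removed, as described below, it was -0.26. Relative to Uqcrc1 in the same library, Uqcr10 stood at 83.7%, 85.6% and 81.7% of the FPKM in aged rats and at 148%, 98.0% and 117% in adult rats, a ratio on which the groups did not overlap. That ratio was chosen with the values known. Like ratios of a small over a large subunit overlapped between the ages. Sdhc over Sdha stood at 87.6%, 124% and 92.5% in aged and at 162%, 99.4% and 133% in adult rats. Atp5e over Atp5b stood at 54.7%, 80.7% and 55.9% in aged and at 87.3%, 66.0% and 90.2% in adult rats. Uqcr10 has 435 bases and Uqcrc1 1567, and the part of gene length in their ratio was not tested. Uqcr11, another small subunit and with Uqcrh the most abundant per length, had 353, 401 and 273 CPM in aged rats and 426, 339 and 504 CPM in adult rats (log2 fold change -0.31 ± 0.19, unadjusted p = 0.155). Uqcrq, a further small subunit, had a log2 fold change of -0.23, and Uqcrh, the acidic hinge protein, -0.049. In RefSeq Uqcr10 overlaps Zmat5, Uqcrc2 overlaps Pdzd9 and Uqcrq overlaps Gdf9, which leaves their counts uncertain where strand was not used.

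Complex IV, the oxidase that reduces oxygen to water, was the complex with the lowest median: all 15 tested genes were lower in aged rats, the median log2 fold change was -0.23, and 0 were called. It also had the shortest genes of the complexes, with a median of 495 bases. Of all genes under 600 bases at 50 CPM or more, members included, 96.8% were lower in aged rats, with a median of -0.16. The 10 genes expressed in most tissues had a median of -0.19, with log2 fold changes that each lay under 0. Summed over the complex, the level was 3327, 4167 and 2972 CPM in aged rats and 4417, 3238 and 3942 CPM in adult rats, or 3489 ± 614 and 3865 ± 593 CPM. Aged replicate 2 lay above 2 of the 3 adult libraries, and adult replicate 2 lay below 2 of the 3 aged ones. Leaving out each library in turn kept the median negative, between -0.37 and -0.090, and with the length trend removed it was -0.065.

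Cox4i1, the common form of the regulatory subunit IV, was the most abundant member per length, at 1325 ± 228 FPKM in aged and 1334 ± 165 FPKM in adult rats. It had 886, 1103 and 768 CPM in aged rats and 1003, 789 and 1014 CPM in adult rats (log2 fold change -0.025). Cox6a1, the common subunit VIa, had 480, 619 and 438 CPM in aged rats and 683, 521 and 586 CPM in adult rats (log2 fold change -0.22). Cox8a, the common subunit VIII, had 321, 387 and 280 CPM in aged rats and 422, 341 and 415 CPM in adult rats (log2 fold change -0.25 ± 0.16, unadjusted p = 0.148). Cox7a2 and Cox7b, small subunits of the same complex, had log2 fold changes of -0.25 and -0.15, and Cox7a2l, which joins complexes III and IV in supercomplexes, had -0.077. Cox7a2l2, a paralogue of Cox7a2, had 2.93, 2.41 and 2.63 CPM in aged and 5.12, 2.84 and 3.67 CPM in adult rats (log2 fold change -0.54), and aged replicate 1 lay inside the adult range.

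The isoforms that replace these subunits in other tissues were at trace levels. Cox4i2, the form known from lung, made up 0.145%, 0.203% and 0.170% of subunit IV transcripts by FPKM in aged rats and 0.230%, 0.291% and 0.197% in adult rats. Cox6a2, the heart and skeletal muscle form of subunit VIa, made up 0.275%, 0.176% and 0.269% in aged and 0.241%, 0.304% and 0.368% in adult rats. Cox8b, the heart and muscle form of subunit VIII, made up 0.353%, 0.257% and 0.104% in aged and 0.723%, 0.629% and 0.323% in adult rats.

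Cox8b had 11, 8 and 3 reads in aged rats and 29, 22 and 13 reads in adult rats. The groups did not overlap, and the log2 fold change was -1.44 ± 0.58 (unadjusted p = 0.0379, adjusted p = 1.0 by edgeR). Cox6a2 had 1.27, 1.04 and 1.13 CPM in aged rats and 1.57, 1.52 and 2.07 CPM in adult rats, also without overlap (log2 fold change -0.58 ± 0.35, unadjusted p = 0.137). Cox4i2 had 2.40, 4.18 and 2.44 CPM in aged and 4.30, 4.30 and 3.73 CPM in adult rats (log2 fold change -0.46), and Cox6b2, the form known from testis, had 2.06, 5.22 and 2.75 CPM in aged and 3.21, 2.72 and 4.13 CPM in adult rats (log2 fold change -0.0095). Of 19 skeletal muscle markers, 18 were tested and all 18 were lower in aged rats. The list summed to 335, 180 and 208 CPM in aged rats and to 348, 329 and 857 CPM in adult rats, with Tcap too low to be tested. These sums include Pvalb, which is also a marker of interneurons. Pvalb alone had 98.8, 106 and 70.6 CPM in aged and 117, 107 and 129 CPM in adult rats. The part of muscle RNA in the values of Cox8b and Cox6a2 was not tested. Adult replicate 3 held the highest sum of muscle markers and the highest Cox6a2, but the lowest Cox8b of the adult libraries.

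Complex V had 10 of 17 genes lower and 7 higher in aged rats, a median log2 fold change of -0.043, and 0 called by edgeR. Its catalytic subunits were slightly higher in aged rats. Atp5a1, the alpha subunit, had 899, 785 and 744 CPM in aged rats and 716, 754 and 677 CPM in adult rats, a log2 fold change of 0.18 ± 0.13 (unadjusted p = 0.203) with aged replicate 3 inside the adult range. Atp5b, the beta subunit that holds the catalytic sites, had 1606, 1684 and 1350 CPM in aged rats and 1531, 1475 and 1409 CPM in adult rats (log2 fold change 0.072). Summed over the complex, the level was 5406 ± 788 CPM in aged and 5402 ± 591 CPM in adult rats.

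The named rotor and membrane subunits were slightly lower in aged rats. Atp5e, the epsilon subunit of the central stalk, had 186, 287 and 160 CPM in aged rats and 283, 206 and 269 CPM in adult rats (log2 fold change -0.26 ± 0.23). The c ring, whose rotation couples proton flow to ATP synthesis, is built from 1 mature protein that 3 genes encode, Atp5g1, Atp5g2 and Atp5g3. Their log2 fold changes were -0.15, -0.14 and -0.096. Their mix was steady: Atp5g1 gave 19.1%, 19.5% and 19.2% of their FPKM in aged rats and 19.8%, 19.7% and 19.6% in adult rats. Atp5g3 gave 48.6%, 47.1% and 45.4% in aged and 47.8%, 44.1% and 46.1% in adult rats, and Atp5g2 the remainder. Atp5l, subunit g of the membrane part and after Atp5b the most abundant gene of complex V per length, averaged 332 ± 62.3 CPM in aged and 344 ± 50.5 CPM in adult rats (log2 fold change -0.050). Atp5sl, whose RefSeq name Dmac2 marks it as a factor for assembly of complex I, averaged 61.8 ± 8.80 CPM in aged and 57.5 ± 5.83 CPM in adult rats (log2 fold change 0.10).

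Atp5f1, the b subunit of the peripheral stalk (Atp5pb in RefSeq), was the member with the largest difference. It had 15.97, 18.23 and 3.07 CPM in aged rats and 2.94, 1.90 and 1.53 CPM in adult rats, 12.4 ± 8.18 against 2.12 ± 0.729 CPM. Aged replicates 1 and 2 were high, while aged replicate 3 lay just above the highest adult library. The log2 fold change was 2.54 ± 0.62 (unadjusted p = 0.00339, adjusted p = 1.0 by edgeR), it lay between 2.16 and 3.01 when each library was left out, and it was 1.79 on log2(FPKM + 1). Atp5h, its partner in the peripheral stalk, had 271, 351 and 241 CPM in aged and 366, 234 and 323 CPM in adult rats. Atp5f1 stood at 3.18%, 2.80% and 0.685% of the FPKM of Atp5h in aged rats and at 0.433%, 0.437% and 0.256% in adult rats, although the stalk needs both proteins. RefSeq names 3 pseudogenes of this gene, and the count in this row is uncertain.

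**Figure D3:**
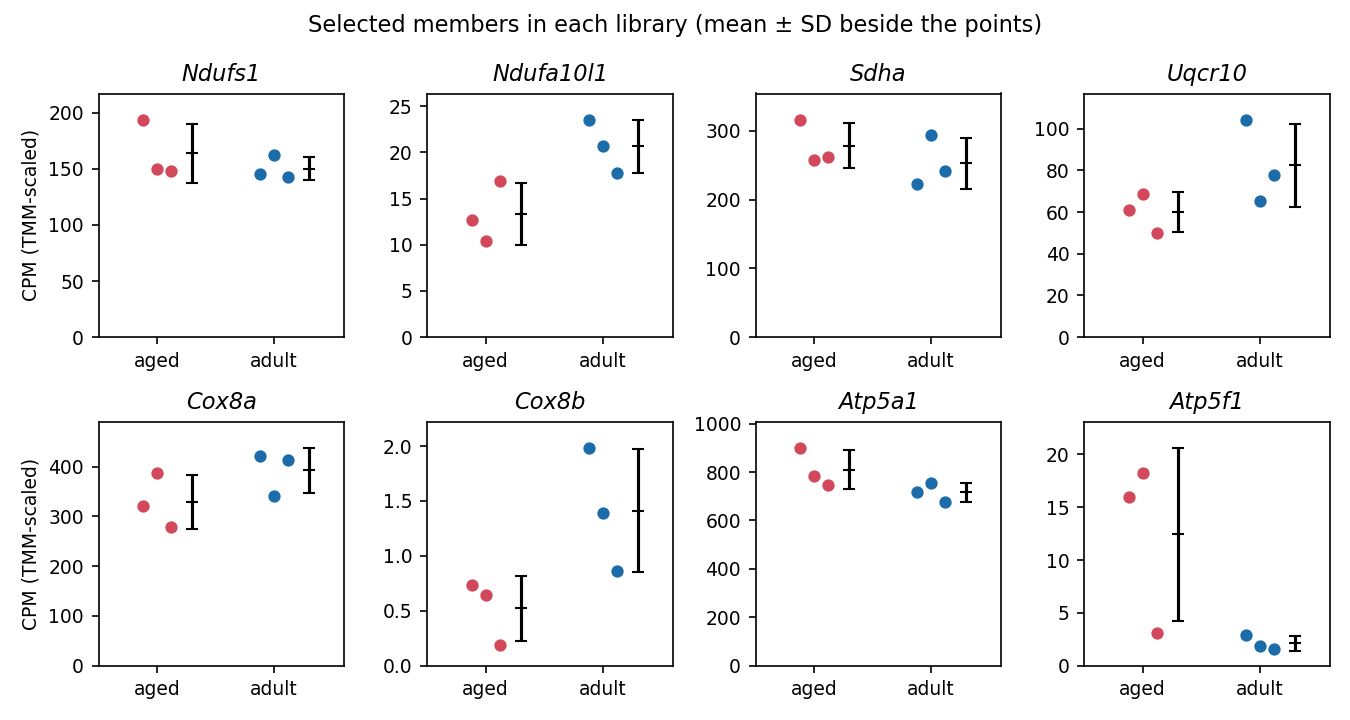
Level (TMM-scaled CPM, axes from 0) of 8 members in each of the 3 aged (left, red) and 3 adult (right, blue) libraries, with the mean and SD as a bar beside the points. Ndufa10l1, Cox8b and Atp5f1 do not overlap between the ages, Uqcr10 overlaps through aged replicate 2, Cox8a likewise, Atp5a1 through aged replicate 3, and Ndufs1 and Sdha with more than 1 aged library inside the adult range.

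Sorted by role, the 13 core or catalytic genes had 6 lower and 7 higher in aged rats (median log2 fold change 0.040). The 46 accessory genes had 40 lower and 6 higher with a median of -0.12. The core class holds no gene of complex IV and the accessory class no gene of complex V, so the contrast is also one between complexes. Other roles stood outside both classes. In complex V the peripheral stalk had 1 lower and 3 higher, and the central stalk, c ring and membrane accessory genes had 3 lower each and 0 higher. Roles were set with earlier results known. Uqcrc1 and Uqcrc2, core proteins by name, and the anchors Sdhc and Sdhd were counted as accessory. Their log2 fold changes were 0.075, 0.0078, -0.21 and -0.093, and the contrast depends on such assignments. The core and accessory classes also differed in gene length as the FPKM table gives it, with medians of 1195 and 590.5 bases. Over the 82 tested members, fold change and length had a Spearman correlation of 0.533, and over the 69 members expressed in most tissues at 50 CPM or more it was 0.613. Over all 14588 genes it was 0.115, and over the 4739 genes at 50 CPM or more it was 0.230. These are descriptions across genes of the same 6 libraries, and genes are not independent replicates.

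Read by length, the members up to 999 bases had medians and shares close to those of all genes of their size at 50 CPM or more. The sets of all genes include the members themselves, so part of this likeness is built in. The members counted here were not limited to 50 CPM or more. Of 31 members under 600 bases, 30 were lower in aged rats (median log2 fold change -0.19), beside 211 of 261 genes of that length with a median of -0.16. Of the 94 such genes at 50 CPM or more 91 were lower, which is 96.8%, the same share as in the members. From 600 to 999 bases it was 18 of 22 members and a median of -0.095, beside 469 of 672 genes and -0.097, and 188 of 226 genes at 50 CPM or more (83.2%, against 81.8% of the members). From 1000 to 1499 bases it was 13 of 17 members and -0.077, beside 878 of 1479 genes and -0.042. From 1500 to 2499 bases only 3 of 11 members were lower, with a median of 0.072, beside 1707 of 3306 genes and -0.0082. The single tested member of 2500 bases or more, Ndufa10, had a log2 fold change of 0.014. When each library's smooth trend on gene length was removed in the fit, 35 members were lower and 47 higher, with a median of 0.019. The medians by complex were then 0.013, -0.0076, 0.025, -0.065 and 0.053 for complexes I to V. Length and subunit role move together in these genes and cannot be told apart by this comparison.

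**Figure D4:**
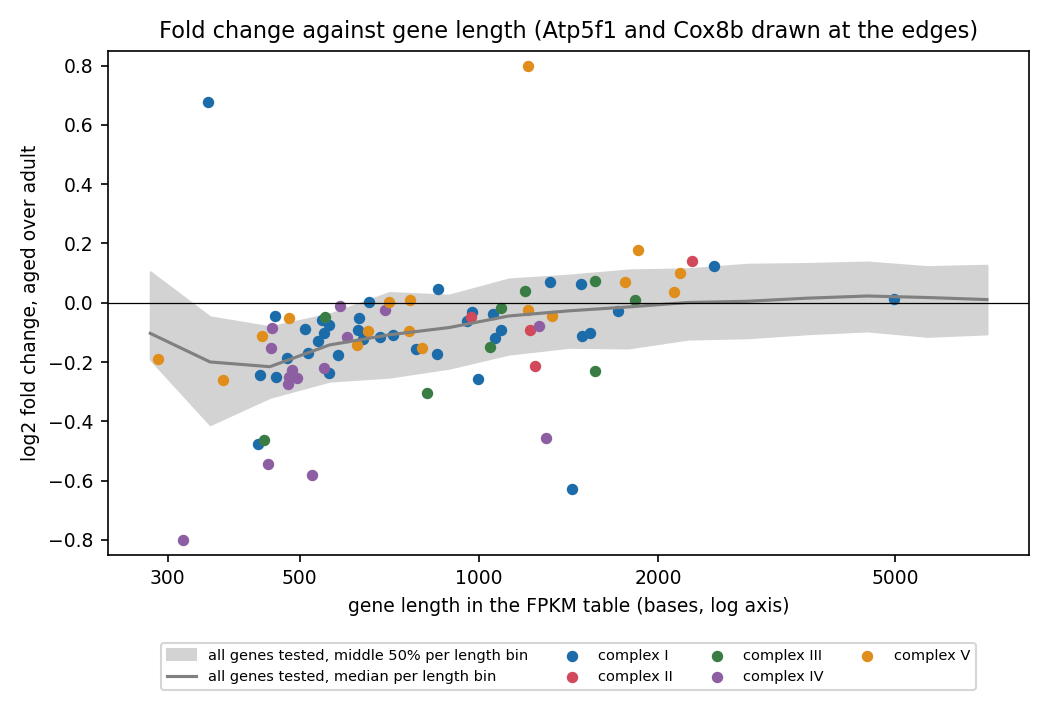
Fitted log2 fold change (aged over adult) of the 82 tested members against gene length in bases (log axis), coloured by complex, over the median (grey line) and middle 50% (grey band) of all genes tested. Both the members and the grey line are lowest at the short end, and from 1500 bases 8 of 11 members up to 2499 bases lie above 0; Atp5f1 (2.54) and Cox8b (-1.44) are drawn at the edges of the axis.

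The other genes of the pathway divided about evenly. Lists of assembly factors, electron carriers, substrate enzymes, regulators and a few subunits with other symbols held 124 genes in the table. Of these 122 were tested, 63 lower and 59 higher in aged rats (median log2 fold change -0.0072), and 0 were called. Only 1 had an unadjusted p under 0.05 by edgeR, a smaller share than the 3.45% of all genes tested. That gene was Coa4, a factor of complex IV assembly, with 13.9, 13.4 and 13.1 CPM in aged rats and 19.1, 17.3 and 17.7 CPM in adult rats, without overlap (log2 fold change -0.42, unadjusted p = 0.0202, adjusted p = 1.0 by edgeR). Of the 22 tested complex IV assembly factors 17 were lower and 5 higher, with a median of -0.098, and Taco1, an activator of COX1 translation, had a log2 fold change of -0.36. Assembly factors of complex I had 9 lower and 6 higher (median -0.0039, Nubpl -0.20 and Ndufaf3 -0.13), those of complex II 3 lower and 0 higher (median -0.045, Sdhaf4 -0.21 and Sdhaf2 -0.045), those of complex III 3 and 3 (median -0.0060, Lyrm7 -0.19 and Bcs1l 0.19), and those of ATP synthase 3 and 2 (median -0.023, Tmem242 -0.18 and Atpaf1 0.16).

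Cytochrome c and the enzymes of ubiquinone synthesis, which supply the mobile carriers, divided into 7 lower and 7 higher (median -0.0027), with Coq4 at a log2 fold change of 0.33 and Adck4 at 0.18. Pyruvate dehydrogenase and the citric acid cycle had 3 of 16 tested genes lower and 13 higher in aged rats, with a median of 0.088. Genes of this list are longer than most members, with a median length of 2157 bases. Cs, citrate synthase, had 203, 132 and 169 CPM in aged rats and 122, 175 and 131 CPM in adult rats (log2 fold change 0.23), and Dlat, a pyruvate dehydrogenase component, had a log2 fold change of 0.20. Regulators of mitochondrial biogenesis had 6 lower and 11 higher (median 0.045). Among them Ppargc1a, a coactivator that drives respiratory chain genes, had 43.5, 46.7 and 44.4 CPM in aged rats and 45.6, 39.6 and 29.2 CPM in adult rats (log2 fold change 0.23), and Sirt3, a mitochondrial deacetylase, had -0.11. Mitochondrial carriers, pores and import genes had 9 lower and 12 higher (median 0.0095), with the import receptor Tomm70 at 0.46 and the chaperone Hspa9 at 0.36. The 3 tested proteins of complex I and ATP synthase with other symbols, Ndufab1, Usmg5 and Atpif1, were all lower (median -0.12). None of these was called, and of the genes named, all but Coa4, Taco1 and Coq4 overlapped between the ages. Over the 122 tested genes of all lists, 2 had every aged value below every adult value and 2 had every aged value above. Neither count was a larger share than the 4.43% and 3.13% of all genes tested with those patterns.

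Promoters of the members were compared because transcription factors such as NRF1, the ETS factor GABP (NRF2) and YY1 are known to bind many respiratory chain promoters and to act on them together. RefSeq promoters of assembly GRCr8, from 250 bases before to 50 bases after each start, were found for 73 of the 85 members, and 21851 protein-coding promoters of the same 300 bases served for comparison. The letters CCGGAAG (ETS) were in 19 of 73 members (26.0%) and in 10.7% of all protein-coding promoters. The letters AAGATGGCG (YY1) were in 10 members (13.7%) and in 2.07% of all. The letters GCATGCGC (NRF1) were in 9 members (12.3%) and 3.11% of all, and the longer palindrome that these letters form with GC before them was in 4 (5.48%) and 1.08%. GGGCGG (SP1) was in 32 members (43.8%) and 41.8% of all, and CCAAT in 24 (32.9%) and 38.0%. Both strands were searched for exact matches, and median GC content was 56.0% in members and 55.0% in all. A match describes letters in this window only.

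By complex, ETS letters were in 6 of 33 promoters of complex I, 2 of 4 of complex II, 3 of 6 of complex III, 4 of 15 of complex IV and 4 of 15 of complex V. YY1 letters were in 7 of 33 of complex I, 0 of 15 of complex IV and 2 of 15 of complex V. The long NRF1 letters were in 3 of 15 promoters of complex V, 1 of 33 of complex I and 0 of 15 of complex IV. The short NRF1 letters were in 2 of 33 promoters of complex I, 1 of 4 of complex II, 1 of 6 of complex III, 1 of 15 of complex IV and 4 of 15 of complex V. The tissue isoforms had ETS, YY1 or long NRF1 letters in 0 of 6 promoters and the short NRF1 letters in 1 of 6, that of Cox8c. In sets this small, a count of 0 cannot be told from the shares of all protein-coding promoters given above.

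The 6 promoters below, read 5′ to 3′ on the strand of the gene, are shown for what they hold: Ndufa6 (complex I, chr7:115750268-115750567 on the minus strand) has the short NRF1, ETS and YY1 letters, and Atp5i (ATP synthase subunit e, chr14:1464610-1464909 on the plus strand) has the long NRF1 and ETS letters. Cox8a (chr1:213833574-213833873 on the minus strand) and Cox4i1 (chr19:65630133-65630432 on the plus strand) each have 2 ETS matches and belong to the most abundant subunits of complex IV. Uqcr10 (chr14:83791865-83792164 on the minus strand) and Atp5f1 (chr2:196123688-196123987 on the minus strand), members with an unadjusted p under 0.05 in opposite directions, have no NRF1, ETS or YY1 letters in the window. Ndufa6 and Atp5i were chosen for their matches with results known. Coordinates are of RefSeq assembly GRCr8, and capitals mark the NRF1, ETS and YY1 matches on either strand, while SP1 and CCAAT letters are left unmarked.
Ndufa6: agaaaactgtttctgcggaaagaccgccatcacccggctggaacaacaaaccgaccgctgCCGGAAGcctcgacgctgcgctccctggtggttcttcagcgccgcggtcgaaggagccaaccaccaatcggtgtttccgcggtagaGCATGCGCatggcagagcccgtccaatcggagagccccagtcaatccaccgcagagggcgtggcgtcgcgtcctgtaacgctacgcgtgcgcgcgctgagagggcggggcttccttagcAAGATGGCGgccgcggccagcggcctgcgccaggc
Atp5i: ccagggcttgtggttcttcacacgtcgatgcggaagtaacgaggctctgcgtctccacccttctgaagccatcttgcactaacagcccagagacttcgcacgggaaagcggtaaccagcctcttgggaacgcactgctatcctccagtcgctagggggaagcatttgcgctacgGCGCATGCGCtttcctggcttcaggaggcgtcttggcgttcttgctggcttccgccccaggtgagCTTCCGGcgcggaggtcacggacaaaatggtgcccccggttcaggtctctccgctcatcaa
Cox8a: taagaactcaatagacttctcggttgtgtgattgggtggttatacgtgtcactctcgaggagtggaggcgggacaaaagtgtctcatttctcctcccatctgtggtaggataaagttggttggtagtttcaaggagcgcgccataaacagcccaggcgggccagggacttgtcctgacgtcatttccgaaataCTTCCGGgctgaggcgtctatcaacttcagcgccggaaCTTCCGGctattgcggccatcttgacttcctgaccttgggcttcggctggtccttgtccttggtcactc
Cox4i1: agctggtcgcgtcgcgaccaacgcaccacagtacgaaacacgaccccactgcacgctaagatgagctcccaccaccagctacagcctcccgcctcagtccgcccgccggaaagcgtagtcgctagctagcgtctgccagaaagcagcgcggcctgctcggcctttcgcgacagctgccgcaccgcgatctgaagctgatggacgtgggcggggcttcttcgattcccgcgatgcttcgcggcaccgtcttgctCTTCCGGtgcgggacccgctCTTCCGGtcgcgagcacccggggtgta
Uqcr10: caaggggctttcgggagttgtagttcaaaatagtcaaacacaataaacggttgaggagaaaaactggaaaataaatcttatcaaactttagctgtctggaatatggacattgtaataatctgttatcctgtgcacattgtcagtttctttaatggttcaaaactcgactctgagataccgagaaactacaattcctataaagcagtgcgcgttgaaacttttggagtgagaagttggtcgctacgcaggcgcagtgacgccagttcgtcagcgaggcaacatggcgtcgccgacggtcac
Atp5f1: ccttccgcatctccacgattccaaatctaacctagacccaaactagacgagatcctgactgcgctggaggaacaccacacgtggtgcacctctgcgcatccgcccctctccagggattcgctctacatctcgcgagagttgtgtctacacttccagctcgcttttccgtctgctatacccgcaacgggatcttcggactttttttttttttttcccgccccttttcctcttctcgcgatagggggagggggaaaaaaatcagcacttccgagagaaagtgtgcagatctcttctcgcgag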

How the data were processed

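RNA of 3 aged and 3 adult rats was sequenced, 1 library per animal. The authors deposited raw counts per gene symbol, whole numbers as found in the values, and a table of FPKM values. Dividing a gene's counts by its deposited FPKM and the library totals gave 1 length per gene, so the FPKM add no measurement of their own. Per the submitters' processing notes the genome build was Rnor 6.0. For aligner, counter, annotation and strandedness, nothing is given in the sources used here. With library totals of 12476758 to 15689921 counts, a gene at 1 CPM rests on few reads. The p-values set the difference between the ages against the spread among the 3 animals within each age.

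Aged was compared with adult over all genes: filterByExpr left 14588 genes, which were scaled by TMM and tested two-sided with edgeR 4.0.16 (quasi-likelihood F test, R 4.3.3), with age as the only term, Benjamini-Hochberg adjustment and a threshold of 0.05. Standard errors come from the F statistic, and the biological coefficient of variation was 23.4%. CPM are TMM-scaled, and levels between genes are compared in FPKM. Members, roles and pathway lists were chosen with earlier results of these data known. Named were the 3 members with the smallest p in each direction per complex at a mean of 1 CPM or more, the 2 of highest FPKM per complex, the tissue isoforms, the c subunit genes and the catalytic subunits, and in each pathway list the 2 genes with the smallest p. A gene that this rule takes is not reported here. Symbols matched RefSeq GRCr8 for all 85 members, 68 by symbol and 17 by an older symbol; 38 have a named pseudogene and 31 overlap another gene.

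Alternatives were RLE, upper-quartile and total scaling, no filter or 1 CPM in 3 libraries, DESeq2 1.42.0, limma-voom (limma 3.58.1), limma on log2 FPKM with a pseudocount of 1 or 0.1, a threshold of 0.10, the replicate number as a block, an offset that removes each library's spline (5 degrees of freedom) on gene length, and leaving out each library. Adding rows that carry other symbols was chosen after seeing the data. The edgeR fit, alone, with the replicate block and with the length offset, and limma-voom were run on simulated counts. The changes added there were larger than the median shifts described here, on which those runs do not bear. Figures were drawn with matplotlib 3.10.9. Genes of mitochondrial DNA and maze results were not analysed here.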

Additional observations from a re-analysis of the deposited data

How the results depend on the processing

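The count of members called by edgeR was 0 under every scaling, filter, threshold, block, length and leave-one-out setting tried. DESeq2 called 31 genes and 1 member, Atp5f1 (log2 fold change 2.55), and limma on log2(FPKM + 1) called 2 genes, 0 of them members. Leaving out each library in turn gave 0 to 1 genes called and 33 to 73 members lower in aged rats, with medians from -0.24 to 0.026 over all members, -0.23 to 0.025 in complex I, -0.18 to 0.023 in complex II, -0.18 to 0.059 in complex III, -0.37 to -0.090 in complex IV and -0.20 to 0.082 in complex V. Where 2 libraries of an age were left, they were assumed to vary like the others. With the gene length offset 35 members were lower, and 36 with the replicate block together with that offset, instead of 64. Signs were compared only for genes taken by the naming rule. Others mentioned in the text, such as Ndufab1, Atp5h, Ndufa6, Atp5i and the LOC rows, are not covered. Among the genes compared, signs turned with the offset for Atp5g2 (0.0024 with the offset, 0.0036 with block and offset), Atp5g3 (0.021 and 0.032), Atp5l (0.13 and 0.13), Cox4i1 (0.096 and 0.096), Cox6b2 (0.11 and 0.063), Cox7b (0.040 and 0.045), Ndufb9 (0.014 and 0.016), Sdhb (0.026 and 0.025), Uqcrfs1 (0.043 and 0.039), Uqcrh (0.11 and 0.11), Usmg5 (0.11 and 0.11) and Atpif1 (0.052 and 0.055), and with library totals for Cox6b2 (0.010). The offset's own construction removes what follows length; the cause of the trend was not tested. Among the same genes, leaving out a library turned the sign of Atp5g3 (-0.26 to 0.082), Atp5l (-0.19 to 0.074), Atp5sl (-0.0091 to 0.20), Cox4i1 (-0.17 to 0.088), Cox6b2 (-0.46 to 0.26), Cox7a2l (-0.21 to 0.025), Cox7b (-0.30 to 0.019), Cyc1 (-0.012 to 0.13), Ndufa4 (-0.33 to 0.00078), Ndufb9 (-0.33 to 0.047), Ndufv1 (-0.028 to 0.16), Sdhb (-0.19 to 0.054), Uqcrc1 (-0.011 to 0.18), Uqcrc2 (-0.045 to 0.13), Uqcrfs1 (-0.16 to 0.070), Uqcrh (-0.18 to 0.14), Usmg5 (-0.36 to 0.11), Atpif1 (-0.40 to 0.11) and Sdhaf2 (-0.15 to 0.045). Deviations of same-numbered libraries correlated at -0.137, -0.106 and 0.062 over 14588 genes. These values show no pairing by number, but with 3 libraries per age they cannot exclude it. With the replicate block 66 members were lower, 16 higher and 0 called. Among tested members, depth limits Cox8b, Ndufs6, Cox6a2 and Ndufa1 the most, which have the fewest reads.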

Other observations

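Several subunits that the symbol rule misses are in the table under other symbols, chosen after seeing the data. LOC688869, which RefSeq names Cox6b1, the common subunit VIb of complex IV, had 293, 358 and 266 CPM in aged rats and 403, 287 and 358 CPM in adult rats (log2 fold change -0.19). LOC100911483, named Ndufa13 there, a complex I subunit also known as GRIM-19, had 186, 266 and 172 CPM in aged rats and 271, 172 and 229 CPM in adult rats (log2 fold change -0.11). Both followed the library order of the other members, with aged replicate 2 and adult replicate 1 high. Ndufab1, the mitochondrial acyl carrier protein that is also a complex I subunit, averaged 131 ± 23.6 CPM in aged and 134 ± 27.1 CPM in adult rats. Usmg5 (Atp5mk in RefSeq), a small membrane subunit of ATP synthase, had a log2 fold change of -0.12. Atpif1, the inhibitor of ATP synthase, had 209, 353 and 212 CPM in aged rats and 357, 200 and 282 CPM in adult rats (log2 fold change -0.12). With these rows and LOC679739 added, the median log2 fold change was -0.098 over all members.

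A few subunits needed in every cell had far fewer reads than their partners. Ndufa1, a small complex I subunit, had 1.93, 1.77 and 1.25 CPM in aged rats and 3.69, 1.14 and 2.07 CPM in adult rats. Ndufs6 stood between 0.632 and 1.93 CPM, and LOC679739, which RefSeq also names Ndufs6, between 1.502 and 2.972 CPM. Atp5f1 stood between 1.53 and 18.2 CPM. Rows that RefSeq names as pseudogenes of members held reads as well: Ndufa3-ps3 had 17.7, 18.3 and 13.8 CPM in aged rats and 29.0, 16.4 and 17.9 CPM in adult rats. LOC687508, which RefSeq also names Cox7a1, had 35, 40 and 40 reads in aged rats and 63, 28 and 31 reads in adult rats (log2 fold change -0.017), more than the row under the symbol Cox7a1. How reads were divided between genes and their copies was not tested.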
